A study of Arabidopsis thaliana with 12 samples.

Results

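The genes described here are 6 regulators and targets of the SHORT-ROOT (SHR) and SCARECROW (SCR) pathway, which patterns the ground tissue of the Arabidopsis root. They were taken by probe set: JKD (AT5G03150), BLJ (AT1G14580), BIB (AT3G45260), SCL23 (AT5G41920), SLY2 (AT5G48170) and TRI (AT2G29330). Each has 1 probe set, together 6 of the 22801 in the table, which name 13286 genes singly, and all 6 were among the 15922 tested. Expression was measured on 12 Affymetrix ATH1 arrays, short-oligonucleotide arrays read in a single colour, from green fluorescent cells sorted out of root tips of 5-day-old seedlings of ecotype C24. All 4 groups, with 3 biological replicates each, carried J0571, an enhancer trap in which GAL4 and GFP are made in cortex and endodermis. The control group had J0571 alone; in each of the other 3 groups GAL4 also activated a UAS transgene, for BLJ in the first, JKD in the second and SCR in the third. The background was labelled wild type, so native copies of these genes were present, and the driver limits the added factor to ground tissue. The number of independent transgenic lines behind each group is not given in the sources used here.

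SHR is made in the stele and moves outward into the neighbouring cell layer, where SCR binds it and holds it in the nucleus. The BIRD proteins, to which JACKDAW (JKD), BLUEJAY (BLJ) and BALDIBIS (BIB) belong, are zinc finger transcription factors of the INDETERMINATE DOMAIN (IDD) family that bind SHR and SCR, help to keep SHR from moving further and maintain cortex and endodermis identity. SCL23 is a GRAS protein closely related to SCR. SLY2, also called SNEEZY, is an F-box protein related to SLEEPY1, which marks DELLA repressors of gibberellin signalling for degradation, and TRI encodes a tropinone reductase-like dehydrogenase; both are known as targets of SHR.

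The deposited values are linear intensities, 66.1% of them under 1, with array medians from 0.785 to 0.866. The spread of the log2 values differed between groups, with an SD of 0.68 to 0.71 on the controls, 0.88 to 0.97 on the BLJ-labelled, 0.82 to 1.0 on the JKD-labelled and 0.68 to 0.91 on the SCR-labelled arrays. SCR 2, at 0.68, was like the controls, while SCR 1 and SCR 3 each had 0.91. Every BLJ- and JKD-labelled array spread more widely than every control, so spread and label cannot be told apart there. Arrays were therefore quantile normalized, which gives each the same distribution, and "value" below means the normalized linear value unless the deposited one is named. Of the markers of other cell types with a named probe set (2 of 5 for root hair and epidermis, 1 of 6 for phloem and xylem, 1 of 4 for root cap and 1 of 4 for the quiescent centre and stem cells), deposited values lay at percentiles from 11.6 (EXPA7) to 81.1 (AT4G04460) of all plant probe sets. The endodermis markers AT1G61590 and GSO1, 2 of 8 with a named probe set, lay between percentiles 93.1 and 97.9 on every array. The 5 of 6 cortex markers that could be measured lay between 25.7 and 90.6. These percentiles come from different probe sets, so they do not rank the markers or measure the purity of the sort. The first principal component, with 35.9% of the variance, placed control 3, BLJ 3 and BLJ 1 highest.

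Over the 12 arrays the deposited values of the 6 network genes lay at percentiles from 19.0 (BIB on JKD 1) to 73.8 (TRI on SCR 2). Probe sets differ in brightness, so such percentiles serve to compare 1 probe set between arrays and do not rank the genes. The table holds no detection calls, so whether a transcript was above background on a given array is not known. Fold changes are given on a log2(value + 0.702) scale, which keeps 51.2% (BIB) to 59.0% (TRI) of the change that plain log2 would show at these levels. Ratios of group means are therefore printed beside the called differences of the 6 genes. Brighter probe sets keep more of the change, so fold changes of bright markers and of these genes are not on a like scale. Differences were tested with limma over all 15922 probe sets and 12 arrays, and a difference was called at a Benjamini-Hochberg adjusted p under 0.05.

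TRI, BLJ and JKD had their lowest values on the arrays labelled BLJ, and the other 3 genes showed no called difference. By limma's F test over the 4 groups, TRI (adjusted p = 0.0138), BLJ (0.0165) and JKD (0.0234) differed among groups, while BIB (0.118), SCL23 (0.635) and SLY2 (0.675) did not pass; 4.96% of all probe sets passed. The count was 1 without the arrays control 3, BLJ 1 and BLJ 3, and 0 without BLJ 3 alone. It was 4 both on the deposited scale and after median centring, where 2390 and 1976 of the 15922 probe sets passed, against 790 as reported. Without BLJ 3 alone, 257 of all probe sets passed. In sorted bulk cells, fewer cells of a type and less RNA per cell cannot be told apart.

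**Figure D1:**
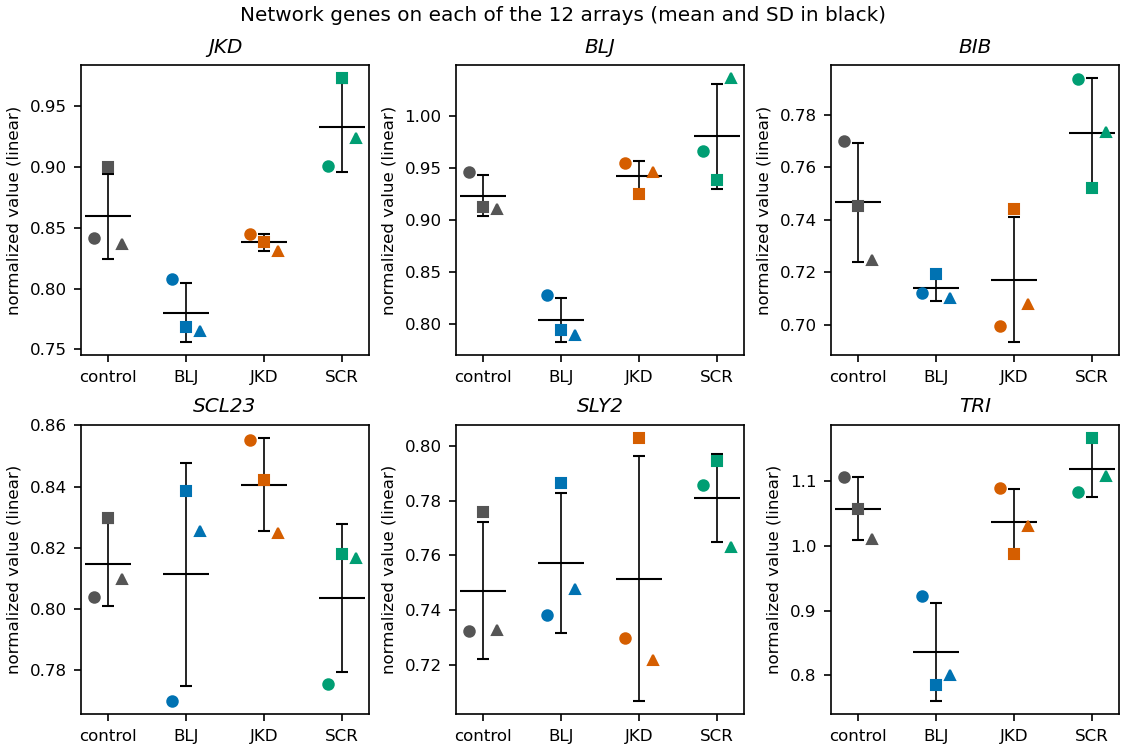
Normalized linear values of the 6 network genes on each array, by group as labelled; symbols mark replicates 1 (circle), 2 (square) and 3 (triangle), and black bars give the mean ± SD of 3 arrays. BLJ, TRI and JKD lie lowest on the BLJ-labelled arrays, whose means are 0.804, 0.836 and 0.780, while for SCL23 and SLY2 each line overlaps the controls.

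Each BIRD gene was read first in the line that carries its own UAS copy. The gene BLJ read 0.828, 0.795 and 0.789 on BLJ 1, 2 and 3, against 0.946, 0.913 and 0.911 on the 3 control arrays. On the JKD-labelled arrays it read 0.954, 0.925 and 0.946, and on the SCR-labelled arrays 0.966, 0.938 and 1.04. The 3 BLJ-labelled arrays were thus the 3 lowest of all 12, and the control and the other arrays overlapped. In percentiles of the array, the BLJ probe set moved from 59.3 to 62.2 in the controls to 44.1 to 50.3 on the arrays labelled BLJ. The mean of 0.804 ± 0.0211 (SD, n = 3) was 0.871 times the control mean of 0.923 ± 0.0197, a log2 fold change of -0.11 ± 0.03 SE (95% interval -0.17 to -0.05), with a limma adjusted p of 0.0335. On the normalized values the BLJ probe set therefore read lower in the line labelled as driving the gene. The adjusted p ranged from 0.0267 to 0.135 as single arrays were left out, and the call was lost without control 1, BLJ 1, BLJ 2, BLJ 3, JKD 1 or JKD 3.

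The gene JKD, likewise, was not raised in the line labelled for it. It read 0.845, 0.839 and 0.831 on the JKD-labelled arrays and 0.841, 0.900 and 0.837 on the controls, so the groups overlapped. The log2 fold change was -0.02 ± 0.02 SE, with an interval from -0.07 to 0.03 (limma adjusted p = 0.702). A rise beyond that upper bound lies outside the interval. On the deposited scale every JKD-labelled array (0.810 to 0.836) lay below every control array (0.862 to 0.907), as was also true of BIB and SCL23, so of 3 of the 6 genes, where 22.6% of all probe sets did so. BIB was tested only in fits that held SCR-labelled arrays, where it was highest, so its place in this count is no support. The sources used here do not say whether the probes match the transgenes, so the probe sets of BLJ and JKD check neither the constructs nor the labels. Neither was higher in its own line, and the lines are named below by label alone. The SCR probe set is unnamed here.

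Across the other lines, JKD was lowest on the arrays labelled BLJ and highest on those labelled SCR. It read 0.808, 0.768 and 0.765 on BLJ 1, 2 and 3, all below the lowest control. On the SCR-labelled arrays it read 0.901, 0.973 and 0.924, all above the highest control, if by a narrow margin on SCR 1. Against the controls the log2 fold changes were -0.07 ± 0.02 SE with the BLJ label (ratio of means 0.908, interval -0.13 to -0.02, limma adjusted p = 0.104) and 0.07 ± 0.02 SE with the SCR label (ratio 1.09, interval 0.01 to 0.12, adjusted p = 0.199). Neither passed, although the unadjusted p values in the same limma fit were 0.00831 and 0.0166. On the deposited values the first difference was called (-0.11, adjusted p = 0.00916), and SCR 1 lay just inside the range of the controls. JKD was the 1 gene of 6 for which every normalized SCR-labelled value exceeded every control, a pattern held by 9.55% of all probe sets.

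BIB, the third BIRD gene, varied less. It read 0.712, 0.719 and 0.710 on the BLJ-labelled arrays, just under the lowest control value of 0.725, and 0.700, 0.744 and 0.708 on the JKD-labelled ones. The SCR-labelled arrays read 0.794, 0.752 and 0.773, within or above the control range of 0.725 to 0.770. The log2 fold changes were -0.03, -0.03 and 0.03 with the BLJ, JKD and SCR labels, with 95% intervals inside -0.07 to 0.06, and none was called by limma (adjusted p = 0.330, 0.381 and 0.478). This gene depended on the scale. On the deposited values it was 0.664 to 0.704 with the BLJ label and 0.635 to 0.753 with the JKD label, all below the controls at 0.775 to 0.820, and both differences were called (-0.11 and -0.11, limma adjusted p = 0.0256 and 0.0183). After median centring the JKD-labelled difference was -0.06 (adjusted p = 0.0444).

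**Figure D2:**
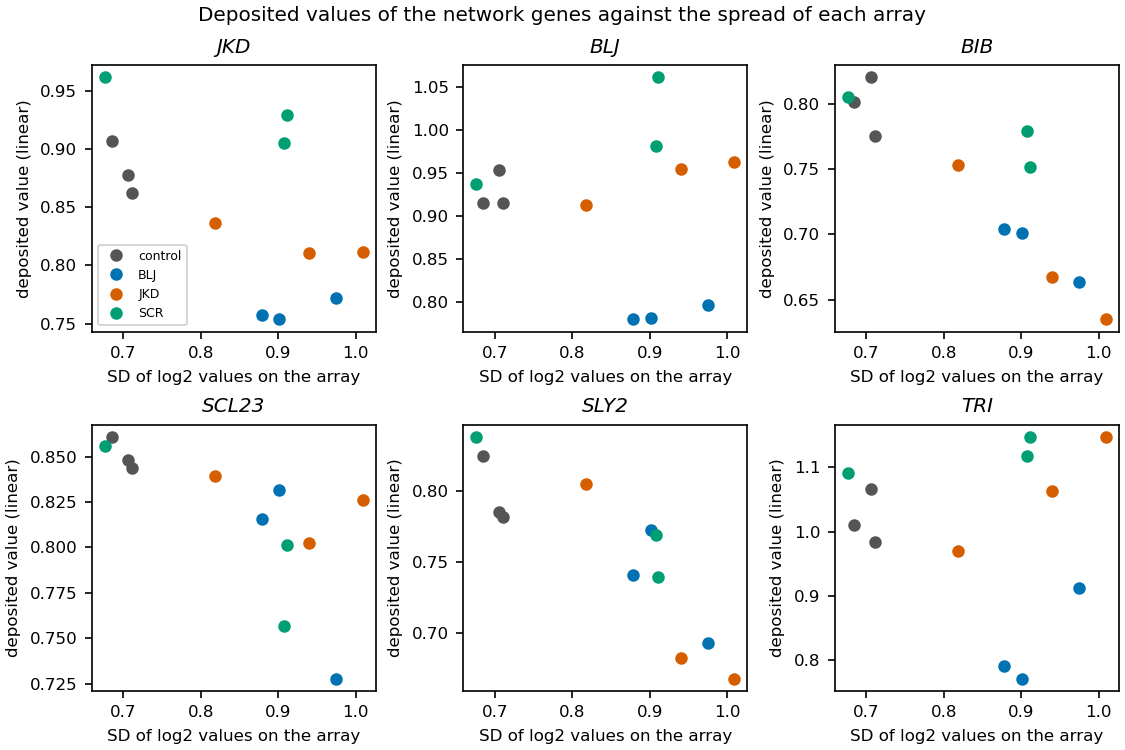
Deposited linear values of the 6 network genes (vertical axis) against the SD of all log2 values on the same array (horizontal axis), 1 point per array, coloured by labelled group. BIB and SLY2 read lowest on JKD 1, the array with the widest spread (SD 1.0), where their deposited values were 0.635 and 0.668; BLJ and TRI read lowest on BLJ-labelled arrays, at 0.780 and 0.771.

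SCL23, the GRAS gene related to SCR, was the steadiest of the regulators across lines. It read 0.804, 0.830 and 0.810 on the controls, 0.770, 0.839 and 0.825 with the BLJ label, 0.855, 0.842 and 0.825 with the JKD label and 0.775, 0.818 and 0.817 with the SCR label. Each line overlapped the controls. The log2 fold changes of 0.00, 0.02 and -0.01 had intervals from -0.05 to 0.04, -0.02 to 0.07 and -0.06 to 0.04, and none passed in limma (adjusted p = 0.962, 0.574 and 0.848). Changes within those intervals are not excluded. With 3 arrays a group a larger change can also go uncalled, as for JKD with the BLJ label (-0.07, limma adjusted p = 0.104).

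SLY2, the F-box gene, spread most on the JKD-labelled arrays. There it read 0.730, 0.803 and 0.722, so that JKD 2 held the highest value of all 12 and JKD 3 the lowest. The controls read 0.733, 0.776 and 0.733, the BLJ-labelled arrays 0.738, 0.786 and 0.748, and the SCR-labelled arrays 0.785, 0.794 and 0.763. Every group overlapped the controls. The log2 fold changes were 0.01, 0.00 and 0.03 with the BLJ, JKD and SCR labels, with intervals reaching from -0.04 to 0.08, and 0 of 3 were called (limma adjusted p = 0.869, 0.941 and 0.488).

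TRI, the dehydrogenase gene, differed most of the 6. It read 0.923, 0.785 and 0.800 on BLJ 1, 2 and 3, against 1.11, 1.06 and 1.01 on the controls. The JKD-labelled arrays read 1.09, 0.988 and 1.03 and the SCR-labelled arrays 1.08, 1.17 and 1.11. All 3 BLJ-labelled arrays lay below the other 9, BLJ 1 by the smallest margin. The mean of 0.836 ± 0.0754 (SD, n = 3) was 0.790 times the control mean of 1.06 ± 0.0482, and TRI fell by 0.20 ± 0.04 SE on the log2 scale (interval -0.28 to -0.11, limma adjusted p = 0.0159). Left-out arrays gave an adjusted p between 0.0172 and 0.0810, and the call was lost without control 1 or BLJ 3. With the JKD and SCR labels TRI had log2 fold changes of -0.02 and 0.05, with intervals from -0.10 to 0.07 and from -0.03 to 0.13 (limma adjusted p = 0.841 and 0.555). The JKD-labelled value turned to 0.03 on the deposited scale and to 0.08 after median centring, without a call.

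Against the controls, then, 2 of the 6 genes were called lower with the BLJ label, where 2.42% of all probe sets were called lower and 4.25% in either direction. Over the 6 genes the log2 fold changes had a median of -0.05, against 0.00 for all tested probe sets. For 4 of the 6 (JKD, BLJ, BIB and TRI) every BLJ-labelled array lay below every control array. This pattern was held by 10.4% of all probe sets. On the deposited values it was 6 of 6, where 22.7% of probe sets did the same. BIB was tested only in fits that held SCR-labelled arrays, where it was highest, so its place in these counts and in the median is no support. With the JKD label 0 of 6 were called by limma and 0 had an unadjusted p under 0.05, against 2.74% called over all probe sets; for 0 of 6 were the normalized arrays of both groups apart, against 23.2% of all probe sets; the medians were -0.01 for the 6 and 0.01 for all. With the SCR label 0 of 6 were called, 1 (JKD) had an unadjusted p under 0.05, and 0.402% of all probe sets were called; the medians were 0.04 and 0.00. These shares over all probe sets depend on single arrays: with 1 array left out, the calls ran from 185 to 794 with the BLJ label, from 7 to 674 with the JKD label and from 2 to 276 with the SCR label. The 3 comparisons share the control arrays.

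The scale decides the call against the controls. BLJ and TRI were called with the BLJ label on the deposited values (adjusted p = 0.00958 and 0.00943) but missed the threshold after median centring (-0.08 and -0.13, limma adjusted p = 0.0906 and 0.0676). Median centring also turned the split over all probe sets with the BLJ label from 290 higher and 386 lower to 1994 higher and 528 lower. With the 6 BLJ-labelled and control arrays alone, neither gene passed (adjusted p = 0.0977 and 0.0825). Without control 3, BLJ 1 and BLJ 3, which leaves BLJ 2 as the lone BLJ-labelled array, assumed to vary like the other groups, the values were as large (-0.12 and -0.26) and the adjusted p were 0.279 and 0.0777. Beside these values, 2 of the 5 cortex markers rose with the BLJ label, AT1G09750 (0.47, limma adjusted p = 0.0163) and the nitrate transporter gene AT3G21670 (0.13, 0.0469). The phloem gene OPS fell (-0.12, adjusted p = 0.0372), and the endodermis markers AT1G61590 (-0.34, 0.213) and GSO1 (-0.17, 0.718) did not pass. Other values with the BLJ label that did not pass were EXPA18 -0.02, EXPA7 -0.02, AT4G04460 -0.15 and BBM -0.07, and the cortex markers AT1G62510 0.04, AT5G02000 -0.01 and AT1G62500 -0.02. Their part in the result was not tested.

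**Figure D3:**
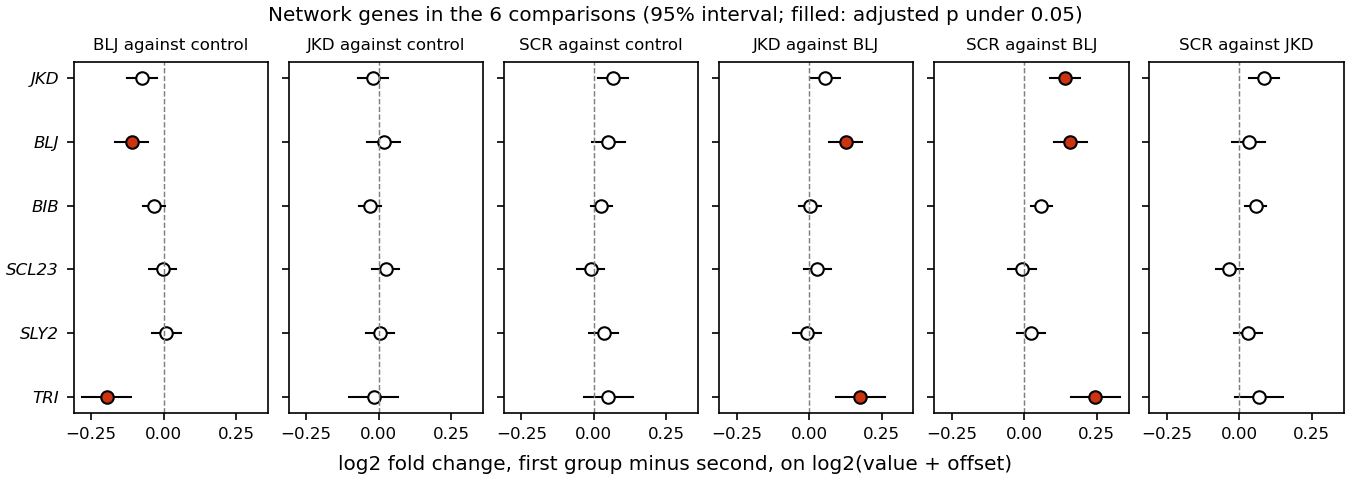
Log2 fold changes of the 6 genes in the 6 comparisons between labelled groups, first group minus second, with 95% intervals; filled points have an adjusted p under 0.05. The 7 filled points all involve the BLJ-labelled arrays, with TRI at -0.20, 0.18 and 0.25 and BLJ at -0.11, 0.13 and 0.16.

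The lines were also compared with one another, by label. These comparisons reuse the BLJ-labelled arrays described above, so they are not independent of the comparison with the controls. The 6 genes were chosen with earlier results of these data known. Their counts beside the shares over all probe sets, here and against the controls, therefore do not test the network as a set. Between the SCR and BLJ labels, 3 of 6 genes were called, all higher with the SCR label, where 0.578% of all probe sets were called higher. TRI averaged 1.12 ± 0.0432 against 0.836 ± 0.0754 (n = 3 each), a ratio of 1.34 and a log2 difference of 0.25 ± 0.04 SE (interval 0.16 to 0.33, limma adjusted p = 0.00976). BLJ averaged 0.980 ± 0.0501 against 0.804 ± 0.0211, a ratio of 1.22 and a difference of 0.16 ± 0.03 (adjusted p = 0.0116). JKD averaged 0.933 ± 0.0367 against 0.780 ± 0.0240, a ratio of 1.20 and a difference of 0.14 ± 0.02 (adjusted p = 0.0138).

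For BIB, too, every SCR-labelled array lay above every BLJ-labelled one, giving 4 of 6 genes, where 11.2% of all probe sets did so. The 30% of plant probe sets with the lowest mean were left out, and BIB fell among them without SCR 1 or SCR 3. BIB was thus tested through the group where it was highest, and its place in this count is no support. Its difference of 0.06 had an interval from 0.02 to 0.10 and did not pass (limma adjusted p = 0.114). SCL23 (-0.01, adjusted p = 0.904) and SLY2 (0.02, 0.659) overlapped. Unlike the falls against the controls, the 3 calls between the SCR and BLJ labels were made both on the deposited values (limma adjusted p between 0.000986 and 0.00146) and after median centring (between 0.00211 and 0.00885). They were also made with the 6 arrays of the 2 groups alone. All 3 were lost without BLJ 3, and those of JKD and TRI without SCR 2. Without control 3, BLJ 1 and BLJ 3 together, TRI alone was called (0.29, adjusted p = 0.0322), with JKD at 0.15 and BLJ at 0.17.

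Between the JKD and BLJ labels 2 of 6 genes were called, both higher with the JKD label, where 0.697% of all probe sets were called higher. BLJ averaged 0.942 ± 0.0150 against 0.804 ± 0.0211, a ratio of 1.17 and a difference of 0.13 ± 0.03 SE (interval 0.07 to 0.18, limma adjusted p = 0.0282). TRI averaged 1.04 ± 0.0511 against 0.836 ± 0.0754, a ratio of 1.24 and a difference of 0.18 ± 0.04 (interval 0.09 to 0.26, adjusted p = 0.0378). For BLJ, TRI and JKD the groups did not overlap, which held in this direction for 8.84% of all probe sets; the JKD difference of 0.06 did not pass (adjusted p = 0.372). BIB (0.00), SCL23 (0.03) and SLY2 (-0.01) overlapped and were not called (limma adjusted p = 0.977, 0.706 and 0.966). The BLJ call was lost without any 1 of the 6 JKD- and BLJ-labelled arrays. The TRI call was lost without control 2, BLJ 2, BLJ 3, SCR 1, SCR 3 or any JKD-labelled array, and limma without trend and robust options gave it an adjusted p of 0.0603.

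Between the SCR and JKD labels 0 of 6 genes were called by limma, 2 had an unadjusted p under 0.05, and 0.49% of all probe sets were called. JKD was 0.09 higher with the SCR label (ratio 1.11, interval 0.03 to 0.14, adjusted p = 0.199), and every SCR-labelled array lay above every JKD-labelled one. BIB was 0.06 higher (interval 0.02 to 0.09, adjusted p = 0.249), again without overlap and again tested through the SCR-labelled arrays. SCL23 had -0.04 and also did not overlap, which over all probe sets held for 20.4% in either direction (limma adjusted p = 0.616). On the deposited values the arrays overlapped for BIB and SCL23. BLJ (0.03), SLY2 (0.03) and TRI (0.07) overlapped, with adjusted p of 0.732, 0.717 and 0.587.

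The order of the group means was the same for BLJ and TRI at both ends, with the BLJ label lowest and the SCR label highest. For BLJ it ran 0.804 (BLJ), 0.923 (control), 0.942 (JKD) and 0.980 (SCR), and only the first step was called. For TRI it ran 0.836 (BLJ), 1.04 (JKD), 1.06 (control) and 1.12 (SCR), with the first step called again. JKD ran 0.780 (BLJ), 0.838 (JKD), 0.859 (control) and 0.933 (SCR), where neighbours were not called and the 2 ends were. BIB ran 0.714 (BLJ), 0.717 (JKD), 0.747 (control) and 0.773 (SCR), SCL23 0.803 (SCR), 0.811 (BLJ), 0.815 (control) and 0.841 (JKD), and SLY2 0.747 (control), 0.752 (JKD), 0.757 (BLJ) and 0.781 (SCR), with no step called for these 3 genes.

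**Figure D4:**
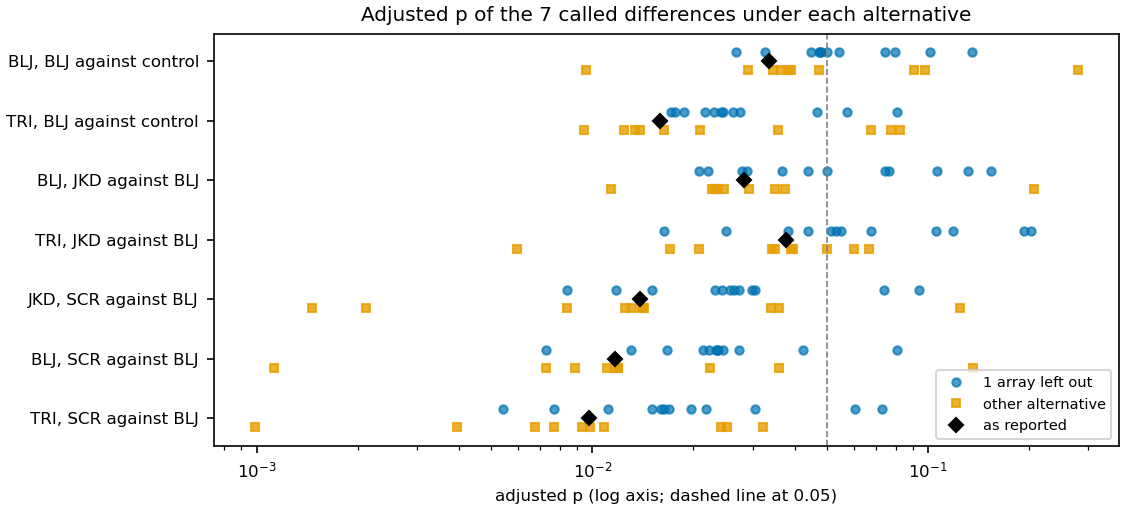
Adjusted p, on a log axis, of the 7 called differences as reported (diamonds), with each array left out in turn (circles) and under the other alternatives (squares); the dashed line marks 0.05. TRI between the SCR and BLJ labels stays left of the line under all 10 other alternatives (highest 0.0322) and crosses it without BLJ 3 or SCR 2, while BLJ between the JKD and BLJ labels reaches 0.207.

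The related genes give the context of these differences. They come from lists of whole families, and many of their probe sets are unnamed here. Of 16 genes listed for the SHR, SCR and BIRD network, the 6 described are those with a named probe set. Of 16 IDD zinc finger genes 5 were named and 4 tested: 1, BLJ, fell with the BLJ label and 0 changed with the JKD or SCR label. IDD16, the family member outside the network, had 0.03, 0.03 and 0.03 with the BLJ, JKD and SCR labels (limma adjusted p = 0.364, 0.431 and 0.453), and between lines its value stayed at 0.00 in each comparison. Between the lines 1 IDD gene (BLJ) was called between the JKD and BLJ labels, 2 (BLJ and JKD) between the SCR and BLJ labels and 0 between the SCR and JKD labels.

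Among the GRAS regulators, the family of SHR, SCR and the DELLA proteins, 11 of 29 were named and 9 tested. SCL21 rose with the BLJ label (0.10, limma adjusted p = 0.0345), the sole call of the family in the 6 comparisons. With the JKD and SCR labels it had 0.09 (adjusted p = 0.0761) and 0.08 (0.158). AT3G46600, the GRAS gene nearest the threshold between lines, was 0.25 higher with the SCR than with the BLJ label (adjusted p = 0.0633) and 0.15 higher than with the JKD label (0.389). Further values that did not pass were AT3G50650 0.07 and AT5G59450 0.14 against the controls, with the JKD and SCR labels in turn (adjusted p = 0.113 and 0.293). AT5G59450 had 0.15 and AT3G50650 0.05 between the JKD and BLJ labels, AT2G37650 -0.07 between the SCR and BLJ labels, and AT5G66770 0.04 between the SCR and JKD labels (limma adjusted p from 0.159 to 0.451).

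SLY2 belongs with the gibberellin receptors GID1A, GID1B and GID1C and the F-box gene SLY1; these were the 5 of 10 listed genes with a named probe set, and 0 of 5 were called in any of the 6 comparisons by limma. GID1B had 0.04, 0.05 and -0.03 with the BLJ, JKD and SCR labels, GID1C -0.04, -0.05 and 0.00, GID1A 0.02, 0.01 and 0.04, and SLY1 0.00, 0.02 and 0.05. In the JKD over BLJ, SCR over BLJ and SCR over JKD comparisons GID1B had 0.00, -0.08 and -0.08, the lowest of the list in the last 2, against -0.01, 0.04 and 0.05 for GID1C, -0.01, 0.02 and 0.03 for GID1A and 0.02, 0.05 and 0.03 for SLY1. Over the 6 comparisons the lowest limma adjusted p among these 4 genes was 0.327 (GID1C, JKD label).

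TRI lies in a cluster of similar dehydrogenase genes, whose values are given beside it. Of 14 listed relatives, itself included, 13 were named and 8 tested. TRI was called in the 3 comparisons with BLJ-labelled arrays, and 0 of the other 7 were called in any comparison by limma. With the BLJ label those 7 ran from -0.06 (AT2G29320) to 0.06 (AT2G29260), against -0.20 for TRI, and the lowest adjusted p among them was 0.232. With the JKD label AT2G29320 had -0.08 and AT2G29300 -0.06 (adjusted p = 0.164 and 0.313), and with the SCR label AT2G29340 had 0.07 and AT2G29310 -0.03 (0.315 and 0.542). Between the SCR and JKD labels AT2G29320 and AT2G29340 both had 0.06 (adjusted p = 0.516 and 0.558). Whether TRI differs from its relatives was not tested.

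**Figure D5:**
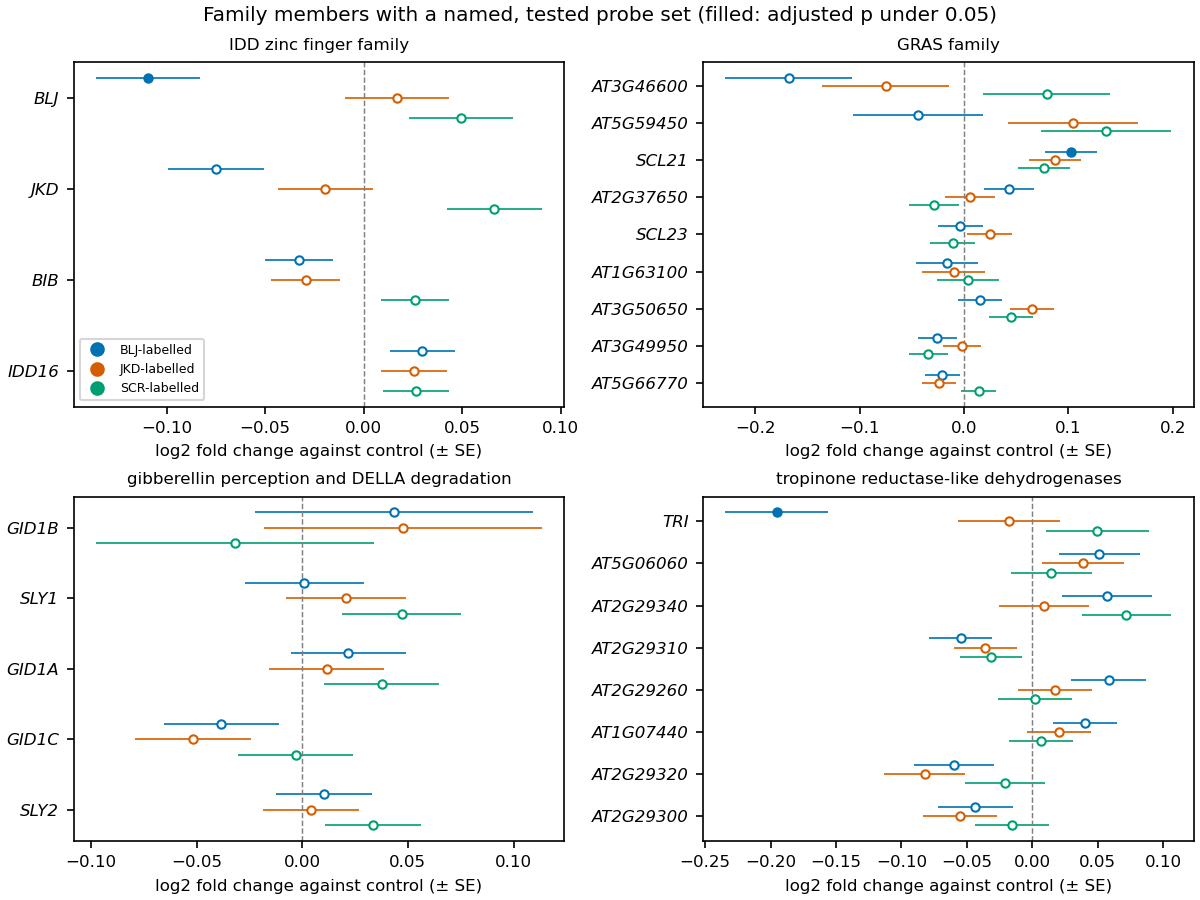
Log2 fold changes against the controls, with SE, for the family members that have a named and tested probe set, by label of the line; filled points have an adjusted p under 0.05. TRI (-0.20) and BLJ (-0.11) with the BLJ label are the filled points to the left of 0, and SCL21 (0.10) with the BLJ label is the filled point to the right.

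The network genes also resembled one another to different degrees across the 12 arrays. TRI followed BLJ (Pearson's r = 0.90 on the log2 scale) and JKD (0.87), and JKD followed BLJ (0.76). These values carry the group differences above; within groups, after each group's mean was removed, they were 0.35, 0.58 and -0.14. SLY2 had 0.00 with BLJ and -0.01 with TRI over the 12 arrays, but -0.55 and -0.44 within groups. BIB had 0.64 with JKD, 0.57 with BLJ and 0.53 with TRI over the 12 arrays, and -0.34, 0.14 and -0.23 within groups. SCL23 had -0.41 with BIB and between -0.13 and 0.11 with the other 4. All are descriptions over the same 12 arrays.

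Among the 8868 other tested probe sets with a single gene, those most like each network gene were named by the highest r over the 12 arrays. For JKD they were AT5G45200 (0.95), SCPL34 (0.91) and ORA47 (0.90), and for BLJ AT1G14390 (0.95), AT5G60570 (0.92) and the class III peroxidase gene AT4G11290 (0.91). TRI was most like AT5G45210 (0.94), AT4G11290 (0.93) and AT2G14900 (0.93). AT4G11290 thus appears for both BLJ and TRI, with means of 10.3 in the controls, 5.27, 11.9 and 12.5 with the BLJ, JKD and SCR labels. AT5G45200 and AT5G45210, the most like to JKD and TRI, are neighbouring genes. BIB was most like AT2G01080 (0.91), AT3G31320 (0.91) and AT3G46700 (0.90), SCL23 most like AT5G13260 (0.88), AT5G60260 (0.87) and WNK9 (0.83), and SLY2 most like AT5G38730 (0.88), AT2G34330 (0.86) and AT2G24130 (0.86). The highest of so many values are large by selection, and they say nothing of shared function. They also carry the group differences. Within groups, in the same order, r was 0.79, 0.59 and 0.89 for JKD and 0.56, 0.79 and 0.25 for BLJ. For TRI it was 0.79, 0.66 and 0.68 and for BIB 0.78, 0.69 and 0.63. For SCL23 it was 0.91, 0.89 and 0.77 and for SLY2 0.97, 0.83 and 0.88.

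The remaining marker values, given for the cell types a sort could hold, were these. With the JKD label the 5 cortex markers did not move one way: AT1G09750 had 0.26 and AT1G62510 0.05, but AT5G02000 -0.06, AT3G21670 -0.05 and AT1G62500 -0.01. The others had GSO1 0.24 and AT1G61590 -0.08 (endodermis), EXPA7 -0.15 and EXPA18 -0.11 (root hair), OPS -0.10, AT4G04460 0.05 and BBM -0.08. With the SCR label AT1G09750 had 0.15, AT5G02000 0.11, AT1G62500 0.04, AT1G62510 0.02 and AT3G21670 -0.02 among the cortex markers. The others had AT1G61590 -0.25 and GSO1 -0.09, EXPA7 -0.20 and EXPA18 -0.15, OPS -0.04, AT4G04460 -0.21 and BBM -0.01. By limma 0 of these were called (adjusted p from 0.0841 to 0.937). Between lines, AT3G21670 was lower with the JKD label than with the BLJ label (-0.18, adjusted p = 0.0179) and lower with the SCR label than with the BLJ label (-0.15, 0.0432), the sole marker calls there. The uncalled values were 0.41, 0.08 and -0.34 for GSO1 and 0.27, 0.09 and -0.18 for AT1G61590 in the JKD over BLJ, SCR over BLJ and SCR over JKD comparisons. In the same order they were -0.13, -0.18 and -0.05 for EXPA7, -0.09, -0.13 and -0.04 for EXPA18 and 0.02, 0.08 and 0.06 for OPS. AT4G04460 had 0.20, -0.06 and -0.26 and BBM -0.01, 0.06 and 0.08. Among the cortex markers, AT1G09750 had -0.22, -0.32 and -0.10, AT5G02000 -0.06, 0.11 and 0.17, AT1G62500 0.01, 0.06 and 0.04, and AT1G62510 0.00, -0.02 and -0.02, while AT3G21670 had 0.02 between the SCR and JKD labels.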

How the data were processed

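The deposited table holds 1 linear intensity per probe set and array, made by the authors with MAS5 per the submitters' processing notes; no source used here gives the version, the background correction or the scaling. Groups and replicate numbers came from the array titles, and 0 columns were unused. The labels name labelling protocols with a single and with an added amplification round without saying which array had which. The members and the gene lists were chosen with earlier results of these data known.

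After quantile normalization, 0.702 (the 20th percentile of the normalized values) was added before log2 was taken. The 55 control probe sets and the 30% of plant probe sets with the lowest mean were left out. A group-means model of all 12 arrays was fitted in limma 3.58.1 (R 4.3.3); eBayes was run with trend = TRUE and robust = TRUE, and p-values of 15922 probe sets were adjusted after Benjamini and Hochberg. Every adjusted p is from this test unless the text names another scale, set of arrays or moderation. The fit was also run on simulated data. The outcome of that run is not given here, so it lends no support to the calls above. Replicates are labelled biological; arrays give no depth, so their number limits the precision. SDs are over the 3 arrays of a group.

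Gene names are those of the platform annotation, brought up to date against RefSeq genes (TAIR10.1): 13513 probe sets have 1 gene, 13436 of them matched, 503 have several and 8730 have no name here. In the lists, the probe set with the highest mean stood for a locus with more than 1. The rule for named genes takes the 6 members, the 3 probe sets most correlated with each, and for each list the called members (up to 4 per comparison) or, with none called, the 2 with the smallest p. IDD16 and AT2G29260, and AT2G29320 with the BLJ label, were added after their values were seen. The normalization, offset, filter, samples in the fit, moderation, replicate block and left-out arrays were varied.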

Additional observations from a re-analysis of the deposited data

How the results depend on the processing

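Of 339 values of the 6 genes under the alternatives that keep every replicate or drop 3 arrays together, 307 kept direction and side of the threshold, 12 lost a call, 4 gained one and 16 turned sign; of 420 with 1 array left out the counts were 378, 27, 0 and 15. None of the values that turned was called before or after. The 50% filter left 3 of the 6 genes (JKD, BLJ and TRI). BIB fell below the 30% filter without SCR 1 or SCR 3, and in each fit of 2 groups that lacked the SCR label.

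On the deposited values 4 genes were called with the BLJ label and 1 with the JKD label; after median centring, 0 and 1. The 2 groups alone gave 0 for the BLJ label and 1 between the JKD and BLJ labels, and limma without trend and robust options gave 1 there. Without control 3, BLJ 1 and BLJ 3 the counts were 0 with the BLJ label, 0 between JKD and BLJ labels, 1 between SCR and BLJ labels and 1 in the F test. With 1 array left out, the counts ran from 0 to 2 with the BLJ label and between JKD and BLJ labels, and from 0 to 3 between SCR and BLJ labels and in the F test; the other 3 stayed at 0.

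Over all probe sets, the calls with the BLJ, JKD and SCR labels numbered 676, 437 and 64. Without normalization they were 2926, 4007 and 62, with arrays centred on the median 2522, 3846 and 51, with the 2 groups alone 34, 13 and 0, 372, 148 and 5 without trend and robust options, and 38, 182 and 6 without the 3 arrays. With the 50% filter they were 365, 146 and 32. Single arrays moved them too: the BLJ label gave 185 without BLJ 3, 255 without BLJ 1 and 348 without control 1. For the JKD label, leaving out JKD 1, 2 or 3 gave 7, 219 and 12, control 1 or 2 gave 227 and 674, and SCR 1 or 3 gave 275 and 269. For the SCR label, leaving out JKD 1, 2 or 3 gave 2, 18 and 29, SCR 1, 2 or 3 gave 2, 2 and 143, BLJ 1 or 3 gave 3 and 4, and control 2 or 3 gave 276 and 32.

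Turned values on the deposited scale were -0.061 (SLY2, BLJ label), -0.026 (SCL23), -0.079 (SLY2) and 0.032 (TRI) with the JKD label, -0.020 (BIB) and -0.015 (SLY2) with the SCR label, -0.0055 (BIB, JKD over BLJ) and 0.013 (SCL23, SCR over BLJ). After median centring they were -0.014 (SLY2, BLJ label), -0.028 (SLY2) and 0.084 (TRI) with the JKD label and -0.0015 (BIB, JKD over BLJ). Without the 3 arrays they were 0.021 (SCL23, BLJ label), -0.0029 (SLY2, JKD label), -0.0021 (BIB, JKD over BLJ) and -0.0052 (SLY2, SCR over BLJ). With 1 array left out, the values that turned ran from -0.016 to 0.016 (SCL23) and -0.0039 to 0.025 (SLY2) with the BLJ label. They ran from -0.021 to 0.019 (SLY2) and -0.039 to 0.0023 (TRI) with the JKD label and from -0.018 to 0.0027 (SCL23) with the SCR label. Between lines they ran from -0.010 to 0.012 (BIB, JKD over BLJ), -0.032 to 0.0084 (SLY2, JKD over BLJ) and -0.027 to 0.0059 (SCL23, SCR over BLJ). The cause was not tested.

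The replicate numbers were not treated as pairs: 12 of 18 same-numbered pairs had deviations correlated over 0.1 (range -0.19 to 0.62). Between the control and JKD-labelled arrays all 3 pairs did (0.28, 0.32 and 0.39), as did all pairs among the replicate 2 arrays, while each other comparison had at least 1 pair that did not, and 8 of 12 arrays correlated best with their own number, a hint from the data only. With the replicate number as a block, the counts of called genes stayed at 2, 0 and 0 against the controls and 2, 3 and 0 between lines, while those over all probe sets were 811, 525 and 206 with the BLJ, JKD and SCR labels and 530, 643 and 143 between lines, against 273, 247 and 78 without the block.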
